A study of Mus musculus with 16 samples.

Results

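The 10 genes described here encode the lysosomal proteases Ctsa, Ctsb, Ctsc, Ctsd, Ctse, Ctsh, Ctsl, Ctss, Ctsz and Lgmn (cathepsins A, B, C, D, E, H, L, S and Z, and legumain). They were taken by symbol from a table of 24421 genes, in a choice made with earlier results of these data known. All 10 were among the 11978 genes with enough counts to be tested, as were 3 of 14 further cathepsin genes. Bulk RNA sequencing was done on cDC1s (type 1 conventional dendritic cells, which excel at activating CD8 T cells) sorted by flow cytometry from the spleen of C57BL6 mice at steady state. The 16 libraries formed 4 groups of 4: immature Xbp1fl, mature Xbp1fl, immature Xbp1flIre1fl and mature Xbp1flIre1fl. All mice carried floxed Xbp1, and the Xbp1flIre1fl mice floxed Ire1 as well. Per the labels, neither gene had been deleted, so no group was a knockout and both genotypes counted as functionally wild type. Mature here means homeostatic maturation, which happens without infection. The labels give neither the age of the mice nor the sort gates, and separate mice for the replicates are not stated, so a p-value reflects the spread among libraries, which may be technical.

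Cathepsins are proteases of endosomes and lysosomes, made as inactive precursors and switched on by cleavage in acidic compartments. In dendritic cells they cut endocytosed antigen into peptides and trim the invariant chain from MHC class II molecules, and cathepsin S is the main enzyme for the last step of that trimming. Legumain cuts after asparagine and also processes the precursors of several cathepsins. Dendritic cells are known for weaker lysosomal proteolysis than macrophages, and cystatins are small proteins that block cysteine cathepsins.

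Mature cDC1s held more mRNA of 9 of the 10 protease genes than immature cDC1s, and none was called lower. Lgmn rose most, by 4.70-fold, followed by Ctsz (2.13-fold) and Ctsd (1.98-fold). Ctsh, Ctsb and Ctss rose by 1.62-, 1.57- and 1.39-fold, and Ctsc, Ctsl and Ctsa by 1.28-, 1.28- and 1.20-fold. Ctse, a gene of low level, did not pass the test. Genes with an adjusted p under 0.05 were called, by edgeR's quasi-likelihood test over all 16 libraries with Benjamini-Hochberg adjustment over all genes tested. Maturation changed a large part of the transcriptome: 67.6% of the tested genes were called in either direction, 33.4% higher and 34.2% lower. The median log2 fold change was 0.56 over the 10 genes and -0.01 over all genes tested. Only Lgmn and Ctsz were called higher and by over 2-fold, against 12.3% of all genes. In 6 of the 10 (Lgmn, Ctsz, Ctsh, Ctsb, Ctss and Ctsa) all 8 mature libraries lay above all 8 immature ones, which held for 18% of all genes. Bulk RNA cannot tell apart a change in RNA per cell from a change in the share of the cells that carry it.

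**Figure D1:**
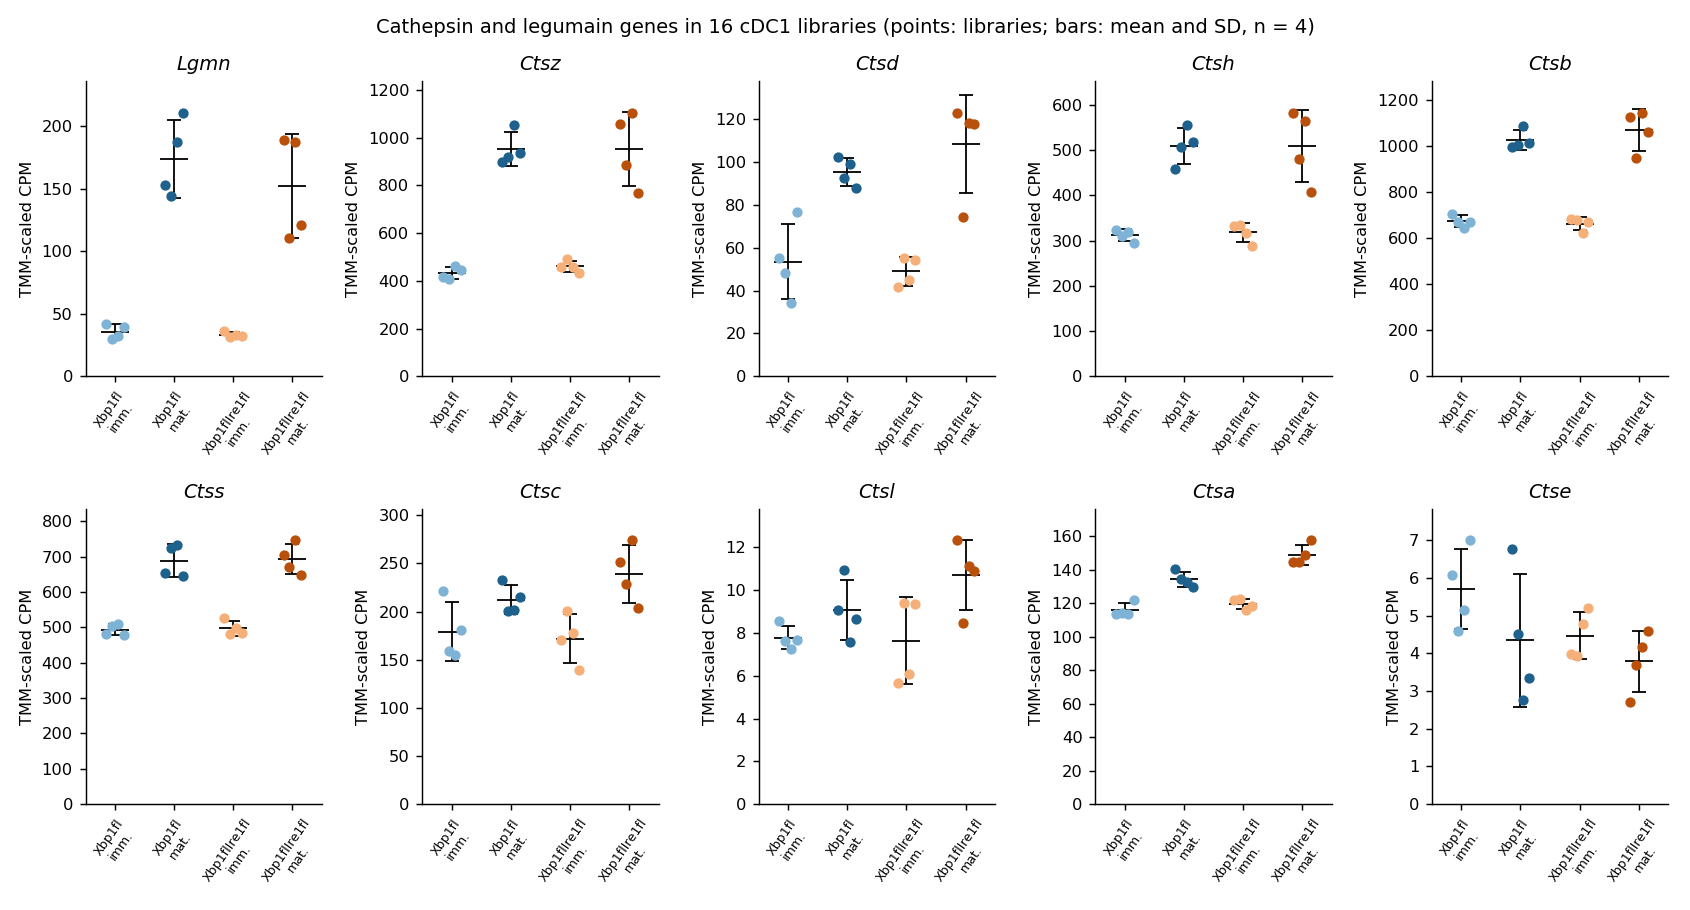
Level of each gene in TMM-scaled CPM (vertical axes, starting at 0) in the 4 groups (horizontal axes; imm., immature; mat., mature). Points are libraries, and bars are the mean and SD of 4; in Lgmn, Ctsz, Ctsh, Ctsb, Ctss and Ctsa every mature point lies above every immature point, and in Ctse the groups overlap.

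The libraries held 13948232 to 17000763 counts. Levels are given as CPM, counts per 1e6 counts after TMM scaling, a method that aligns libraries on the bulk of their genes. The labels of stage matched the markers: Ccr7, the receptor that guides mature dendritic cells to T cell zones, was at 177 ± 72.3 CPM in immature and 9407 ± 2861 CPM in mature libraries (SD, n = 8 each). The cDC1 receptors Xcr1 and Clec9a were present in both stages, at 782 ± 51.7 and 199 ± 9.41 CPM in immature and 572 ± 102 and 160 ± 25.3 CPM in mature libraries. Xbp1flIre1fl mature replicates 2 and 4 had the lowest summed level of 8 maturation markers among mature libraries, at 10360 and 8959 CPM, against 12990 to 20770 CPM in the other 6. Without those 2 libraries, 9 of the 10 protease genes were again called higher and 0 lower. Genes typical of other spleen cells rose too: the summed level of 13 macrophage markers was 152 to 635 CPM in immature and 570 to 1182 CPM in mature libraries, with 10 called higher and none at 0. The sum of 10 B cell markers was 80.2 to 143 CPM in immature and 315 to 1073 CPM in mature libraries, and all 10 were called higher. Of the other marker lists, 4 of 5 plasma cell, 5 of 6 T cell and 4 of 7 cDC2 markers were called higher and none lower. Monocyte markers had 2 called higher and 1 lower of 8, and pDC markers 2 and 1 of 6, while 1 of 7 NK cell and 1 of 6 neutrophil markers were called lower and none higher. All 8 maturation markers were called higher, and of 10 cDC1 markers 2 were called higher and 6 lower. These marker counts stand beside 33.4% of all genes called higher and 34.2% called lower.

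Sequences before annotated transcript starts were searched for CACGTG, an E-box core that TFEB and TFE3, transcription factors of lysosomal genes, are known to bind and that other helix-loop-helix factors bind as well. RefSeq promoter sequences, 250 bases before each start in GRCm38.p6, matched 7 of the 10 genes with 9 starts; Ctsb, Ctse and Ctsh had no entry. The 6 letters, which read the same on both strands, occurred in 4 of these 9 promoters, those of Ctsa, Ctsd, Lgmn and Ctsl. They occurred in 8.22% of the 11698 promoters of tested genes and in 6.02% of all 32851. The stretches around the matches are shown because they mark where these 4 genes share a motif; the motif is in capitals, and each is written 5′ to 3′ on the gene's strand.
Ctsa, plus strand, chr2:164833743-164833772: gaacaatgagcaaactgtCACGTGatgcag
Ctsd, minus strand, chr7:142387908-142387937: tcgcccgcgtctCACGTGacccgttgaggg
Ctsd, minus strand, chr7:142388048-142388077: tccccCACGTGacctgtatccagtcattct
Lgmn, minus strand, chr12:102439124-102439153: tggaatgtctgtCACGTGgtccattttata
Ctsl, minus strand, chr13:64370739-64370768: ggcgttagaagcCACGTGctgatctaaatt

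The motif began 12 bases before the start in Ctsa, 98 and 245 bases before it in Ctsd, 49 in Lgmn and 236 in Ctsl. Ctsa and Lgmn have another RefSeq start each, without the motif in its window, and that start lies nearer the GENCODE 5′ end of the gene. The starts with the motif all lie inside the GENCODE bounds of their genes. In the GENCODE annotation, whose gene bounds differ from these starts, the Ctsa stretch and the Ctsd stretch nearer the start lie wholly in an exon of their own gene, and the Ctsl stretch lies in one partly. The Lgmn stretch lies inside the gene but in no exon, and the other Ctsd stretch lies upstream of the gene. The 4 genes with the motif included the one that rose most (Lgmn) and the called gene that rose least (Ctsa). A PU.1 core, GAGGAAGT, was found in the Ctsc promoter and in 2.75% of the promoters of tested genes. An interferon-response core, GAAANNGAA, was found in the Ctss promoter and in 6.51% of them. Both were searched on both strands. A match of letters is a description only.

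Lgmn lies on chromosome 12 (102394084 to 102439813, minus strand, mm10) and encodes legumain, the asparaginyl endopeptidase. In immature Xbp1fl libraries it was at 42.0, 30.04, 32.0 and 39.1 CPM (replicates 1 to 4), and in immature Xbp1flIre1fl libraries at 36.6, 31.7, 32.8 and 32.5 CPM. In mature Xbp1fl libraries it was at 153, 144, 187 and 211 CPM, and in mature Xbp1flIre1fl libraries at 189, 111, 187 and 121 CPM. The lowest mature library, Xbp1flIre1fl replicate 2, stood above every immature library. The mean was 34.6 ± 4.19 CPM in immature and 163 ± 35.998 CPM in mature libraries (SD, n = 8 each). The log2 fold change was 2.23 ± 0.13 (SE), with an edgeR adjusted p of 4.2e-10.

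Among the cysteine endopeptidases, which cut within a protein chain, Ctss and Ctsb rose moderately with little spread. Ctss, encoding cathepsin S (chromosome 3, 95526786 to 95556403), ranged from 478 to 527 CPM in immature libraries (median 491) and from 646 to 747 CPM in mature ones (median 688). The stages did not overlap, and the log2 fold change was 0.48 ± 0.05 (edgeR adjusted p 6.1e-08). Ctsb, encoding cathepsin B, which also removes dipeptides from chain ends (chromosome 14, 63122462 to 63145923), ranged from 623 to 708 CPM (median 673) in immature and from 948 to 1147 CPM (median 1039) in mature libraries. Again the stages were apart, with a log2 fold change of 0.65 ± 0.05 (edgeR adjusted p 2.1e-09). In the annotation, 12.79% of the Ctsb exon bases also belong to Fdft1, a sterol synthesis gene on the opposite strand, and whether the counting used strand is not given in the sources used here. Fdft1 was at 23.7 ± 3.54 CPM in immature and 63.6 ± 17.7 CPM in mature libraries, both far under Ctsb.

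Ctsl, encoding cathepsin L, the main invariant chain protease of cortical thymic epithelium (chromosome 13, 64359337 to 64370890), stayed low. It ranged from 5.65 to 9.42 CPM (median 7.66) in immature and from 7.56 to 12.3 CPM (median 9.98) in mature libraries, and the stages overlapped. The log2 fold change of 0.35 ± 0.12 passed the test with an edgeR adjusted p of 0.0171. It did not pass with upper quartile scaling (adjusted p 0.106) or with library sizes only (0.385). Of its exon bases, 26.85% are shared with an antisense gene, Gm47123, and 6.09% with a pseudogene, Gm49230, neither of which was analysed here, so the Ctsl counts are uncertain.

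The cysteine exopeptidases, which trim the ends of peptides, included one of the strongest rises. Ctsz, encoding cathepsin Z, a carboxypeptidase (chromosome 2, 174427493 to 174439039), was at 418, 407, 462 and 445 CPM in immature Xbp1fl and at 459, 490, 460 and 434 CPM in immature Xbp1flIre1fl libraries. In mature libraries it was at 898, 917, 1054 and 937 CPM in Xbp1fl and at 1056, 884, 1104 and 768 CPM in Xbp1flIre1fl. Every mature library lay above every immature one, and the lowest mature value came from Xbp1flIre1fl replicate 4, the library with the lowest maturation marker sum. The mean rose from 447 ± 26.9 to 952 ± 111 CPM (SD, n = 8 each), a log2 fold change of 1.09 ± 0.07 with an edgeR adjusted p of 2.6e-10.

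Ctsh, encoding the aminopeptidase cathepsin H (chromosome 9, 90054152 to 90076089), ranged from 288 to 336 CPM (median 318) in immature and from 409 to 583 CPM (median 513) in mature libraries. The stages did not overlap, and the log2 fold change was 0.69 ± 0.07 (edgeR adjusted p 7.4e-08). Ctsc, encoding cathepsin C, the dipeptidyl peptidase that activates granzymes and neutrophil serine proteases (chromosome 7, 88278085 to 88310888), ranged from 139 to 222 CPM (median 174) in immature and from 200 to 274 CPM (median 222) in mature libraries. Its stages overlapped through Xbp1fl immature replicate 1, which at 222 CPM stood above 4 of the 8 mature libraries, and through Xbp1flIre1fl immature replicate 2. The log2 fold change was 0.36 ± 0.09 (edgeR adjusted p 0.00121), and with library sizes only it was 0.13 (adjusted p 0.138).

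Of the aspartic proteases, Ctsd rose and Ctse did not pass the test. Ctsd, encoding cathepsin D, which works at the low pH of lysosomes (chromosome 7, 142375911 to 142388038), was at 55.1, 48.4, 34.3 and 76.5 CPM in immature Xbp1fl and at 41.7, 55.2, 44.8 and 54.1 CPM in immature Xbp1flIre1fl libraries. In mature libraries it was at 102, 92.6, 99.2 and 87.7 CPM in Xbp1fl and at 123, 74.2, 118 and 118 CPM in Xbp1flIre1fl. The stages overlapped by 1 library: the highest immature one, Xbp1fl replicate 4, lay just above the lowest mature one, Xbp1flIre1fl replicate 2. The mean rose from 51.2 ± 12.6 to 102 ± 16.97 CPM (SD, n = 8 each), a log2 fold change of 0.99 ± 0.14 with an edgeR adjusted p of 1.5e-05. In the annotation, 34.37% of the Ctsd exon bases belong as well to Gm49369 on the same strand, a gene not analysed here, so how its reads were divided is uncertain.

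Ctse, encoding cathepsin E (chromosome 1, 131638306 to 131675505), ranged from 3.92 to 6.995 CPM (median 4.96) in immature and from 2.70 to 6.76 CPM (median 3.92) in mature libraries. The stages overlapped, although 4 of the 8 mature libraries lay below every immature one, and the log2 fold change of -0.32 ± 0.17 missed the threshold (edgeR adjusted p 0.11). The call depended on 1 library and on the scaling: without Xbp1fl mature replicate 1, which at 6.76 CPM was the highest mature library, the log2 fold change was -0.46 (adjusted p 0.0134). With library sizes only it was -0.54 (adjusted p 0.012), and with upper quartile scaling -0.44 (adjusted p 0.0325).

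Ctsa, encoding the serine carboxypeptidase cathepsin A, which also holds neuraminidase and beta-galactosidase in a protective complex (chromosome 2, 164832873 to 164841032), was the steadiest gene. It ranged from 113 to 123 CPM (median 117) in immature and from 130 to 158 CPM (median 142) in mature libraries. The stages did not overlap, with a log2 fold change of 0.27 ± 0.04 (edgeR adjusted p 6.8e-06). This small change depended on the scaling, since with library sizes only it was 0.04 (adjusted p 0.435). Of its exon bases, 10.5% are shared with Pltp and 6.87% with Neurl2 on the opposite strand, and both were under 10 CPM on average in either stage.

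**Figure D2:**
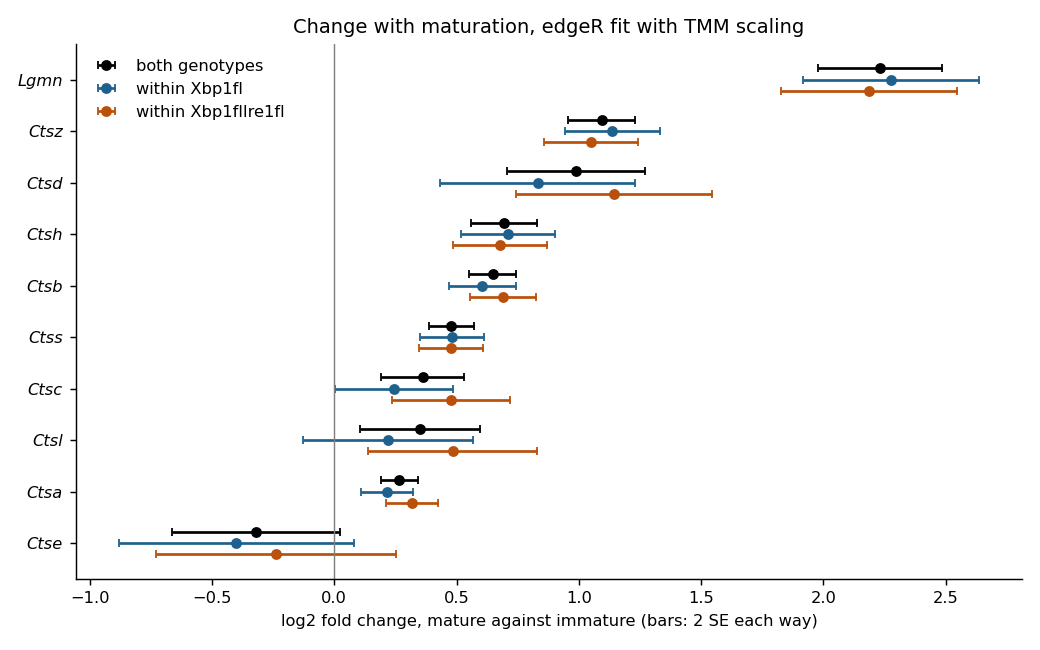
Log2 fold change of mature against immature libraries (horizontal axis) for each gene (vertical axis), over both genotypes and within each; bars reach 2 SE to each side. Lgmn stands farthest to the right at 2.23, and the estimates of the genotypes overlap within their bars for every gene.

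The scaling of libraries bears on the small changes. With TMM the median log2 fold change of all tested genes was -0.01, with upper quartile scaling it was -0.13, and with library sizes only -0.23. The share of calls that were higher moved with it, from 3995 of 8095 calls with TMM to 3213 of 8450 and 2716 of 8807. Of the 10 protease genes, 8 were called higher and 1 lower with upper quartile scaling, and 6 higher and 1 lower with library sizes only. Lgmn, Ctsz, Ctsd, Ctsh, Ctsb and Ctss were called higher in each of the 26 alternative analyses of this comparison. Across these, the log2 fold change was 2.00 to 2.38 for Lgmn, 0.86 to 1.18 for Ctsz, 0.76 to 1.10 for Ctsd, 0.47 to 0.78 for Ctsh, 0.42 to 0.69 for Ctsb and 0.25 to 0.51 for Ctss.

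**Figure D3:**
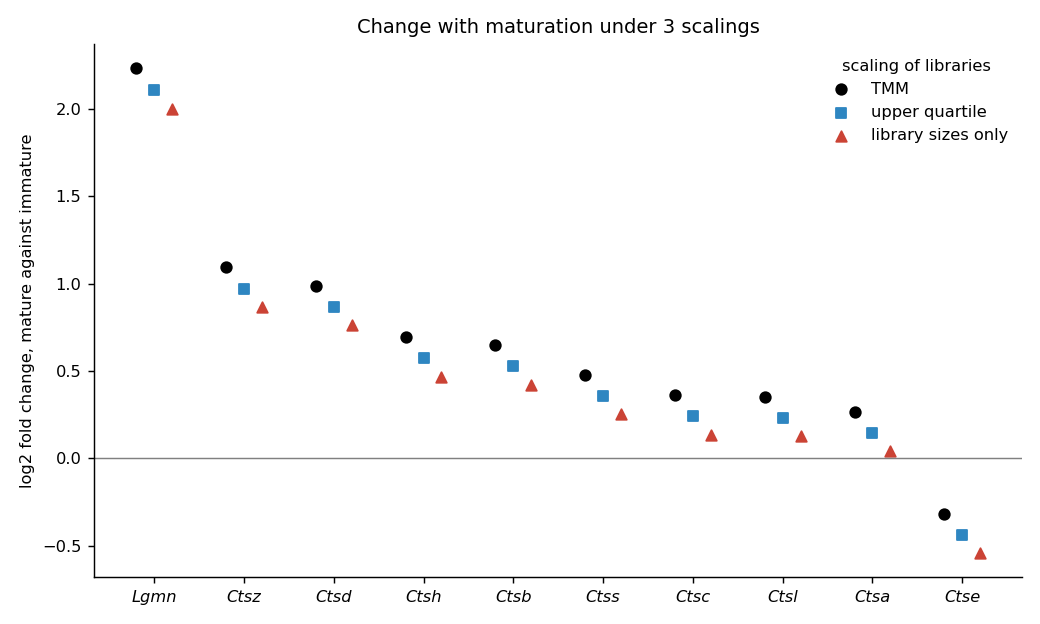
Log2 fold change of mature against immature libraries (vertical axis) for each gene (horizontal axis) under 3 scalings of the libraries, shown by marker shape. All genes move down together from TMM to library sizes only; Ctsa falls from 0.27 to 0.04, while Lgmn stays at 2.00 or above.

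Levels of different genes can be compared only per length, so CPM was divided by the exon length in kilobases (RPKM). In immature cells Ctss led at 365 ± 12.6 RPKM, followed by Ctsz at 310 ± 18.7, Ctsb at 111 ± 4.22 and Ctsh at 70.0 ± 3.80 RPKM (SD, n = 8), with no overlap between neighbours. Ctsc (30.2 RPKM), Ctsa (25.0), Ctsd (21.8) and Lgmn (14.9) came next, and each neighbour in that order overlapped the following one. Ctse (1.60) and Ctsl (1.19) were lowest and overlapped. In mature cells Ctsz had the highest mean at 661 ± 77.3 RPKM, with Ctss at 509 ± 30.2, and their ranges overlapped. Ctsb (173 RPKM) and Ctsh (113) kept the third and the fourth places. Lgmn, at 70.1 RPKM, stood above Ctsd (43.3), Ctsc (38.9) and Ctsa (30.04), although Lgmn overlapped Ctsd and Ctsd overlapped Ctsc. Ctsl (1.52) and Ctse (1.28) remained lowest. With the longest transcript as the length, Ctsc stood above Ctsd and Ctse above Ctsl in mature cells.

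**Figure D4:**
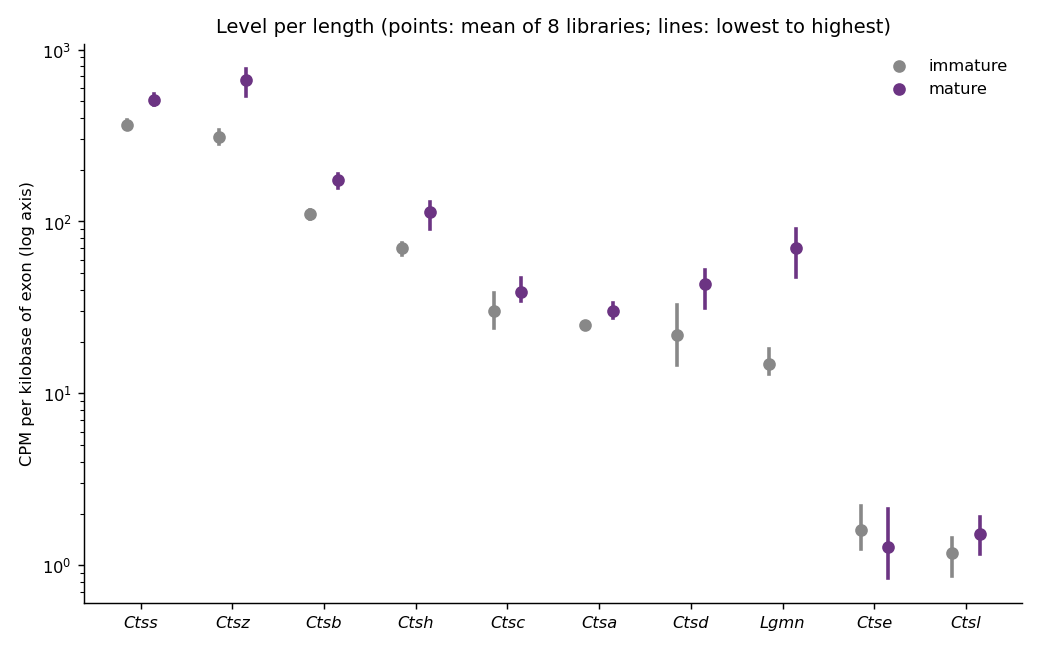
Level per length (CPM per kilobase of exon, log axis) of each gene in immature and mature libraries; points are means of 8 libraries and lines run from the lowest to the highest. Ctss leads in immature cells at 365 and Ctsz has the highest mean in mature cells at 661, and Lgmn moves from 14.9 to 70.1.

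The sum over the 10 genes was 950 ± 23.8 RPKM in immature and 1642 ± 138 RPKM in mature libraries. Ctsz made up 32.6 ± 1.37% of this sum in immature and 40.2 ± 1.57% in mature libraries, while Ctss made up 38.4 ± 1.34% and 31.1 ± 1.54%. Lgmn accounted for 1.57 ± 0.19% and 4.25 ± 0.76%. These shares describe the make-up of the protease mRNA and were not tested.

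Rises were called in each genotype. Within Xbp1fl, 7 genes were called higher and 0 lower, where 56.8% of all genes were called and 28.4% called higher. Ctsc (log2 fold change 0.25 ± 0.12, adjusted p 0.0938), Ctsl (0.22 ± 0.17, 0.297) and Ctse (-0.40 ± 0.24, 0.168) did not pass edgeR's test there. Within Xbp1flIre1fl, 9 were called higher and 0 lower, where 53.5% of all genes were called and 27.4% called higher. Ctse (-0.24 ± 0.25) missed the threshold in that genotype with an adjusted p of 0.431. Replicate numbers paired immature with mature libraries of a genotype, and with the replicate block within genotype Ctsc was called in Xbp1fl as well (0.26, edgeR adjusted p 0.0104). Ctsc was also called there without Xbp1fl immature replicate 1 (0.36, adjusted p 0.0138). Ctsl in Xbp1flIre1fl (0.48 ± 0.17, adjusted p 0.0252) lost its call without mature replicate 1 (0.0832) or 3 (0.0528), or without immature replicate 1 (0.0911) or 3 (0.087).

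The interaction term, which tests whether the change with stage differed between genotypes, called 0 of the 10 genes and 0% of all genes. No protease gene had an unadjusted p under 0.05 for it in edgeR's fit (the lowest was 0.192), where 329 of the 11978 genes tested had one. DESeq2 and limma-voom called 0 as well. The largest difference was in Ctsd, 0.31 ± 0.28 on the log2 scale, with an interval of 2 SE from -0.25 to 0.87. For Lgmn the interval was -0.58 to 0.40, for Ctsz -0.36 to 0.18 and for Ctss -0.19 to 0.18, so differences within these intervals remain possible.

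Between the genotypes directly, 0 of the 10 were called in either stage, where edgeR called 0.134% of all genes in immature and 0.142% in mature libraries. In immature libraries no protease gene had an unadjusted p under 0.05, where 573 of the 11978 genes tested had one. In mature libraries 1 did, Ctsa, where 754 of the 11978 genes did. Ctsa was at 140, 135, 133 and 130 CPM in mature Xbp1fl and at 144, 145, 149 and 158 CPM in mature Xbp1flIre1fl libraries. The log2 difference of 0.15 ± 0.05 (unadjusted p 0.0125 from edgeR's fit) did not pass adjustment (0.563). DESeq2 and limma-voom called 0 of the 10 in both stages.

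In immature libraries Ctsd was higher where the macrophage markers were higher, and also where the neutrophil markers were higher (values below). Against the maturation markers Ctsd ran the other way there (r = -0.78, exact permutation p 0.0249, adjusted 0.181). Over the 8 immature libraries Ctsd correlated with the summed macrophage markers with Pearson's r = 0.954 (exact permutation p 0.000694, two-sided, adjusted 0.0185) and Spearman's rho = 0.952 (exact permutation p 0.00114, adjusted 0.0304). Without the 2 libraries farthest from the median marker sum, r was 0.793 over 6. In mature libraries r was 0.88 (adjusted p 0.0655 by exact permutation) and rho 0.833 (adjusted 0.154). These belong to 80 relations computed, 10 genes by 4 marker lists by 2 stages, and they were chosen after values had been seen. Groups of 4 libraries are too small for the relation within a genotype. Ctss ran the other way in the same immature libraries: by rank it was lower where the macrophage markers were higher (rho = -0.952, adjusted p 0.0304 by exact permutation), while r was -0.664 (adjusted p 0.281), or -0.842 without the 2 farthest libraries.

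The stages came close in the macrophage marker sum at the immature library with the highest sum. Equal sums need not mean an equal macrophage content, and the immature side was 1 library. Vcam1, 1 of the 13 markers, was at 80.5 ± 34.4 CPM in immature and 348 ± 77.9 CPM in mature libraries. Mertk, another, was not called (log2 fold change 0.13, edgeR adjusted p 0.754). Xbp1fl immature replicate 4 had a marker sum of 635 CPM, and the mature libraries nearest to it, Xbp1flIre1fl replicate 2 and Xbp1fl replicate 2, had 570 and 647 CPM. Ctsd was at 76.5 CPM in that immature library and at 74.2 and 92.6 CPM in those mature ones. Lgmn was at 39.1 CPM against 111 and 144 CPM, and Ctsz at 445 CPM against 884 and 917 CPM. Without Xbp1fl immature replicate 4 the log2 fold change of Ctsd was 1.10 (edgeR adjusted p 1.12e-06). The part of macrophage RNA in the rises of Ctsd, Lgmn and Ctsz was not tested.

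**Figure D5:**
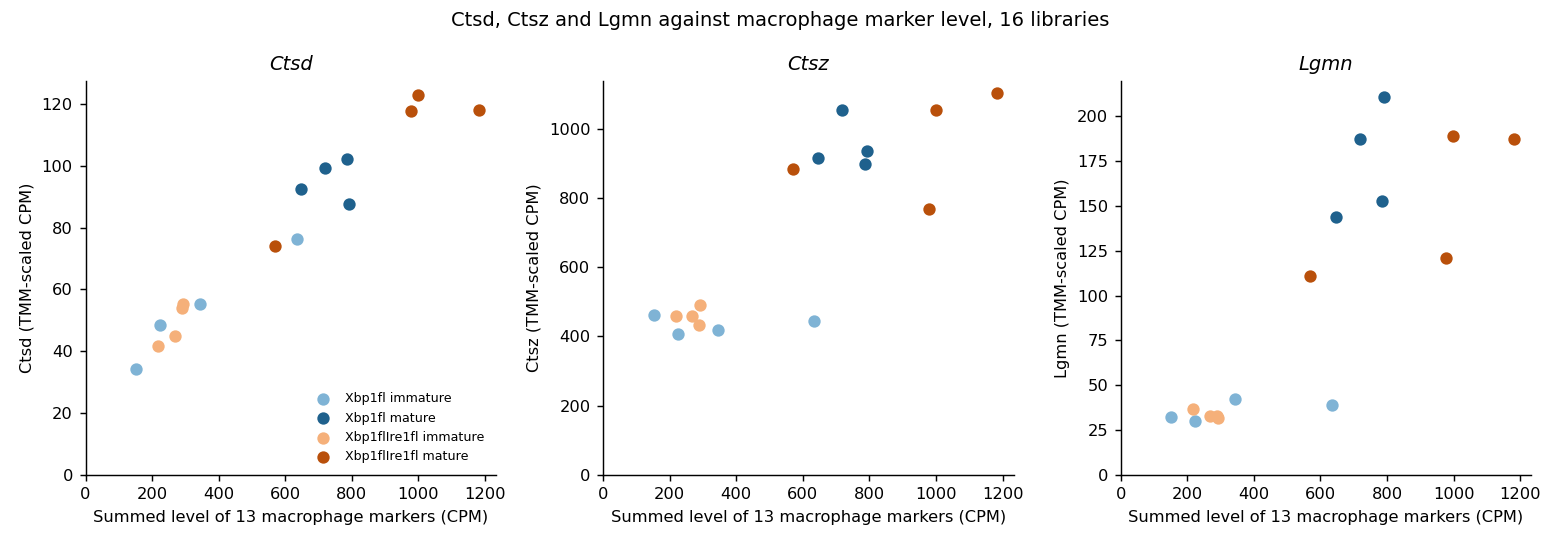
Level of Ctsd, Ctsz and Lgmn (vertical axes, CPM) against the summed level of 13 macrophage markers (horizontal axes, CPM) in 16 libraries, coloured by group. At marker sums of 570 to 647 the immature point for Ctsd lies between the mature ones, and that for Ctsz and Lgmn lies under the mature ones.

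In mature libraries Ctsz was higher where the maturation markers were higher. Over the 8 mature libraries it correlated with their sum with r = 0.958 (exact permutation p 0.000149, adjusted 0.0119) and rho = 0.976 (exact permutation p 0.000397, adjusted 0.0304), and without the 2 farthest libraries r was 0.902 over 6. Lgmn (r = 0.868, adjusted p 0.0744) and Ctsh (r = 0.897, adjusted p 0.0508) did not pass adjustment of the exact permutation p. Of the other relations, Ctsd passed for immature neutrophil markers by r alone (0.859, adjusted p 0.0179, exact permutation; rho 0.905, adjusted 0.0608; r without the 2 farthest 0.772). Ctsd also passed for mature B cell markers by rho alone (0.929, adjusted p 0.0446, exact permutation; r = 0.85, adjusted 0.0744).

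The genes whose profile over the 16 libraries lay nearest to that of a protease gene were found by the root mean square difference of log2 CPM, each centred on its mean, among 7697 genes of at least 10 CPM. Nearest to Ctsz were H2-D1, an MHC class I heavy chain (0.0625), and Psme2, a proteasome activator subunit (0.0632). H2-T23, another MHC class I gene, was nearest to Ctsh (0.0492), Mapk3, a signalling kinase, to Ctss (0.0502), and Atp6ap1, an accessory protein of the lysosomal proton pump, to Ctsa (0.0773). The next nearest to Ctsh, Ctss and Ctsa were Ostf1 (0.0667), Cnn2 (0.0522) and Fth1 (0.07765). Nearest to Ctsb were Dnajc5 (0.0699) and Aldoa (0.0732). Lgmn lay farther from its nearest genes, Strip2 and Poglut1 (0.138 each), as did Ctsd from Zeb2 (0.219). So did Ctsc from Zbtb2 (0.112), Ctsl from Klhl7 (0.177) and Ctse from Slc25a16 (0.247). The measure includes the size of the change with stage.

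The inhibitors of the cysteine cathepsins rose alongside them. All 3 tested cystatin genes of a list of 16 were called higher, against 33.4% of all genes. Their median log2 fold change was 0.60, against -0.01 for all genes. Cst3, encoding the secreted inhibitor cystatin C, was the most abundant at 10851 ± 662 CPM in immature and 13035 ± 1174 CPM in mature libraries (log2 fold change 0.26, edgeR adjusted p 9.7e-04). Cstb, encoding the cytosolic inhibitor cystatin B, rose from 33.0 ± 2.53 to 78.4 ± 10.3 CPM (1.25, adjusted p 2.7e-10), and Cst7, encoding cystatin F, from 1.07 ± 0.42 to 1.67 ± 0.52 CPM (0.60, adjusted p 0.0369). With library sizes only, Cstb alone was called, and Cst3 had a log2 fold change of 0.04.

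Most other cathepsin genes had few or no counts. Of 14 further cathepsin genes, 3 were tested and 1 was called higher, Ctso, at 34.6 ± 1.74 CPM in immature and 42.5 ± 3.27 CPM in mature libraries (log2 fold change 0.30, edgeR adjusted p 1.1e-04). Over all tested genes 33.4% were called higher. Ctso was not called with library sizes only (0.07, adjusted p 0.292). Ctsw (0.25) and Ctsf (0.07) did not pass. There were 8 genes, among them Ctsj, Ctsm, Ctsq and Ctsr, with no count in any library, which allows up to 0.161 to 0.231 CPM per library by a limit of 3 counts that covers counting error only.

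Of 7 tested peptidases, most of them of the lysosome, 4 were called higher and 1 lower (median 0.29), against 33.4% and 34.2% of all genes. The gene called lower was Pepd (-0.26, edgeR adjusted p 1.1e-04), which encodes prolidase, a cytosolic enzyme. Scpep1, a serine carboxypeptidase related to cathepsin A, rose from 116 ± 6.43 to 474 ± 97.5 CPM (log2 fold change 2.02, edgeR adjusted p 1.4e-10). Tpp1, the tripeptidyl peptidase of the lysosome, rose from 30.3 ± 2.93 to 78.9 ± 9.17 CPM (1.38), and Dpp7, a dipeptidyl peptidase, from 12.8 ± 2.40 to 24.5 ± 3.73 CPM (0.94). Napsa, an aspartic protease related to cathepsin D and the most abundant of the list, was at 513 ± 34.7 and 512 ± 40.2 CPM. It was not called with TMM but called lower with library sizes only (-0.23, adjusted p 5.19e-04), where the list had 3 genes higher and 3 lower.

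Of 16 genes, most of which sort or stabilise lysosomal enzymes, 11 were called higher and 2 lower (median 0.22). Over all genes the shares were 33.4% and 34.2%. The 16 include Neu1 and Glb1, which encode lysosomal enzymes themselves. Gga2 and Gga3, adaptors that load mannose 6-phosphate receptors at the Golgi, rose from 23.9 ± 2.77 to 71.9 ± 19.1 CPM (log2 fold change 1.58) and from 33.8 ± 3.51 to 78.4 ± 11.5 CPM (1.21). Neu1, the neuraminidase of the cathepsin A complex, rose from 20.4 ± 2.51 to 38.1 ± 3.88 CPM (0.90). Glb1, the beta-galactosidase of that complex, fell from 41.9 ± 1.95 to 35.1 ± 3.52 CPM (-0.26, edgeR adjusted p 9.02e-04). Psap, the precursor of the saposins and the most abundant of the list, differed by -0.17 on the log2 scale (adjusted p 0.123). Psap was called lower with upper quartile scaling (-0.29, adjusted p 0.0132), with library sizes only (-0.39, adjusted p 0.00135) and without Xbp1flIre1fl mature replicates 2 and 4 (-0.27, adjusted p 0.0125). With library sizes only the list had 7 genes higher and 4 lower, and a median of -0.01.

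Among 11 partners and substrates of the endosomal proteases, 3 were called higher and 2 lower (median 0.20), against 33.4% and 34.2% of all genes. Ifi30, encoding the thiol reductase GILT, which opens disulfide bonds of antigens, rose from 220 ± 13.7 to 684 ± 113 CPM (log2 fold change 1.64, edgeR adjusted p 6.9e-11). Cd74, encoding the invariant chain that cathepsin S cuts, rose from 30320 ± 1882 to 36060 ± 2168 CPM (0.25), a change not called with library sizes only (0.03, adjusted p 0.655). Tlr3, encoding an endosomal RNA receptor that is processed by cathepsins, fell from 239 ± 29.99 to 117 ± 38.7 CPM (-1.03). With library sizes only the list had 2 genes higher and 3 lower, and a median of -0.03.

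TFEB and TFE3 switch on lysosomal genes when nutrient signalling at the lysosome falls. Of 11 tested genes in a list of these factors and other regulators of lysosomal genes, 9 were called higher and 0 lower (median 0.44). Over all tested genes 33.4% were called higher and 34.2% lower. The list mixes activators with genes that restrain them, among them Flcn (0.63) and Zkscan3 (0.31), so its count gives no direction for lysosomal gene activation. Tfe3 rose from 69.8 ± 4.06 to 132 ± 17.5 CPM (log2 fold change 0.92, edgeR adjusted p 4.9e-09) and Tfeb from 64.0 ± 4.48 to 110 ± 15.7 CPM (0.78). Rragd, encoding a Rag GTPase of nutrient signalling, rose from 0.577 ± 0.447 to 18.7 ± 6.85 CPM, with 80 counts over the 8 immature libraries and 2143 over the 8 mature ones. Rragc, the most abundant of the list, rose from 154 ± 6.16 to 183 ± 6.54 CPM (0.25). With library sizes only the list had 6 genes higher and 1 lower, and Rragc was not called (0.03, adjusted p 0.573).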

How the data were processed

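The first table deposited by the authors holds raw counts per gene symbol, and the second holds log2 values, deposited by the authors without a stated normalization and used only as an alternative. Per the submitters' processing notes, the build was mm10, and the tools included TopHat2 2.1.0, Trimmomatic 0.35, FastQC 0.11.4, limma 3.42.2 and SAMtools 0.1.19. The read counter, annotation and strandedness are not given in the sources used here.

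Tests used edgeR 4.0.16 in R 4.3.3 (raw counts, filterByExpr, TMM, robust quasi-likelihood fit with 1 mean per group, 12 residual degrees of freedom), tested first on simulated data. The SE of a log2 fold change is its size over the root of the F statistic. Alternatives were upper quartile scaling, library sizes only, DESeq2 1.42.0, limma-voom and limma on the deposited log2 values (limma 3.58.1), no filter, no robust estimation, replicate blocks, each library left out, and each genotype alone. Leaving out Xbp1flIre1fl mature replicates 2 and 4 together was chosen after seeing the data. Same-numbered immature and mature libraries of a genotype deviated together (r 0.29 to 0.604 in 8 of 8 pairs, over 7881 genes), so the numbers pair them.

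Lengths and positions came from GENCODE M21 and promoters from RefSeq. The protease genes, the 6 pathway lists and the 11 marker lists were chosen with earlier results of these data known. In each list, the 3 genes with the smallest adjusted p and the most abundant were eligible to be named, and other genes were named after their values were seen.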

Additional observations from a re-analysis of the deposited data

Results flagged for a closer look

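In 40 groups of 4 libraries (10 genes by 4 groups), 3 had a library far from the other 3, by a gap to the nearest library that, divided by the range, was above Dixon's 95% critical value; chance gives about 1 in 20. Ctsa was at 122 CPM in Xbp1fl immature replicate 4, against 113 to 114 CPM in the others (gap over range 0.868). Ctsb was at 1090 CPM in Xbp1fl mature replicate 3, against 998.5 to 1014 CPM (0.833). Ctsd was at 74.2 CPM in Xbp1flIre1fl mature replicate 2, against 118 to 123 CPM (0.891); without that library its log2 fold change was 1.06 over both genotypes and 1.29 within Xbp1flIre1fl, and it stayed called in both.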

How the results depend on the processing

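Leaving out each library in turn gave 9 protease genes called higher in mature against immature cells each time, and 0 to 1 called lower. Within Xbp1fl the ranges were 7 to 8 higher and 0 to 1 lower, and within Xbp1flIre1fl 8 to 9 higher and 0 lower. The single gene called lower was Ctse, without Xbp1fl mature replicate 1 (-0.69 within Xbp1fl, adjusted p 0.0164). It was also the 1 gene called lower with upper quartile scaling and with library sizes only, and with library sizes only within Xbp1fl. Within Xbp1fl, library sizes only turned the direction of Ctsa (-0.0199, adjusted p 0.814) and Ctsl (-0.0139, adjusted p 0.952). With that scaling the median of all genes shifted by the amount given above, and all log2 fold changes moved down with it. Ctsa lost its call within Xbp1fl with upper quartile scaling (0.09, adjusted p 0.176), and within Xbp1flIre1fl with library sizes only (0.10, 0.188), as did Ctsc (0.26, 0.0557). With Xbp1fl fitted alone Ctsc was called (0.25, adjusted p 0.0498), and with Xbp1flIre1fl fitted alone Ctsl was not (0.48, 0.0694).

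With the replicate block within genotype, 9 protease genes were called higher and 0 lower, and no call other than that of Ctsc within Xbp1fl changed. Between genotypes the calls among all genes, 16 in immature and 17 in mature cells, became 40 and 36 with DESeq2, 25 in immature cells with limma-voom, 30 in mature cells without Xbp1flIre1fl mature replicate 2, and 27 and 152 without mature replicates 2 and 4; none was a protease gene. Depth limits Ctse and Ctsl most, and 3 counts in a library correspond to 0.161 to 0.231 CPM.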
